A study of Mus musculus with 6 samples.

Results

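The Z-disc is the protein lattice at each end of the sarcomere, the contractile unit of striated muscle. It anchors actin filaments of opposite polarity through crosslinks of sarcomeric alpha-actinin, holds the ends of titin, and carries adaptor and signalling proteins that respond to load. Mutations in several of its genes are known causes of cardiomyopathy or skeletal myopathy. Described here are 10 mouse genes of this structure and its partners: Myot, Trim54, Ldb3, Actn2, Myoz2, Tcap, Csrp3, Nebl, Flnc and Ankrd1. Every probe set annotated to exactly one of these symbols was taken, which gave 16 probe sets for the 10 genes, among 45037 non-control probe sets and 18193 single-symbol genes on the arrays. All 16 were bright enough to be tested. The members were chosen by the lower signals of Myot and Trim54 in transgenic hearts than in control hearts, so differences of any member from control are a description and are printed with no p. Wherever called members are counted, the count is of their probe sets, so a gene can count more than once. Counts of members past the threshold against control stand beside the share of all probe sets, and are given again for other settings of the processing. Nothing is read from them. The comparison between the transgenic lines was not used in that choice and is tested.

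Hearts of male C57BL/6J mice were hybridised to Affymetrix expression arrays, 6 in all and 2 in each of 3 groups. The groups were transgenic mice expressing fatty acid synthase (FASN) at a high level in the heart, transgenic mice expressing it at a low level, and B6 control mice of matched age. The FASN transgene was placed under alpha-MHC, a promoter of heart muscle cells, in both. One line stands for each level, so level and line cannot be told apart, and neither the age in weeks nor the number of hearts behind an array is given. Whether both arrays of a group are different animals is not stated, so the p-values rest on array-to-array spread that could be technical.

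Signals are the deposited linear intensities, in arbitrary units whose scale holds for one probe set at a time. Fasn read 2268 and 2104 in high FASN hearts, 462 and 481 in low FASN hearts, and 213 and 187 in B6 control, the order that the titles give. The tissue label calls all 6 samples transgenic heart, controls included, so groups were taken from the titles. Arrays of one group had a Pearson's r of 0.986 to 0.990 over the 22519 tested probe sets, and arrays from separate groups one of 0.968 to 0.976. Differences are on the scale of log2(signal + 16) with the standard error (SE) of the limma model, and a probe set is called where its Benjamini-Hochberg adjusted p over all tested probe sets is below 0.05. Heart tissue gives one value for all its cells, so fewer cells of a type and less RNA per cell cannot be told apart.

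Myot encodes myotilin, a Z-disc protein that binds alpha-actinin, filamin C and actin. Its probe set 1418155_at read 1112 and 1113 in high FASN hearts, 1152 and 1004 in low FASN hearts, and 5743 and 5740.2 in B6 control. Both lines lay far below control with no overlap, and the lines overlapped each other. The means were 1112 ± 0.813, 1078 ± 105 and 5742 ± 2.14 (SD, n = 2 each). This put high FASN hearts at 19.4% and low FASN hearts at 18.8% of the control mean. The log2 difference from control was -2.35 ± 0.0717 (SE) in high FASN hearts and -2.40 ± 0.0717 in low FASN hearts. In each of these comparisons 6 of the 22519 tested probe sets had a larger fall. Myot was picked for this fall, so the rank is a description. Between the lines the difference was 0.05, with a 95% interval from -0.11 to 0.21, and was not called (limma adjusted p = 0.694). The Myot arrays of both lines thus stood together, while their Fasn arrays stood apart.

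Trim54 encodes a muscle-specific ubiquitin ligase of the MuRF family that associates with microtubules and the Z-disc. Probe set 1419440_at read 2005 and 1912 in high FASN hearts, 892 and 979 in low FASN hearts, and 3021 and 3165 in B6 control. No groups overlapped, and the order was control highest, high FASN hearts next and low FASN hearts lowest. The means were 1959 ± 66.0, 935 ± 61.6 and 3093 ± 102 (SD, n = 2 each), or 63.3% of control in high FASN hearts and 30.2% in low FASN hearts. The log2 difference from control was -0.65 ± 0.0678 in high FASN hearts and -1.71 ± 0.0678 in low FASN hearts. The lines themselves differed, with Trim54 higher in high FASN hearts by 1.05 ± 0.0678 (limma adjusted p = 4.76e-05), a 2.08-fold difference. The line with less Fasn thus had the lower Trim54 signal.

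**Figure D1:**
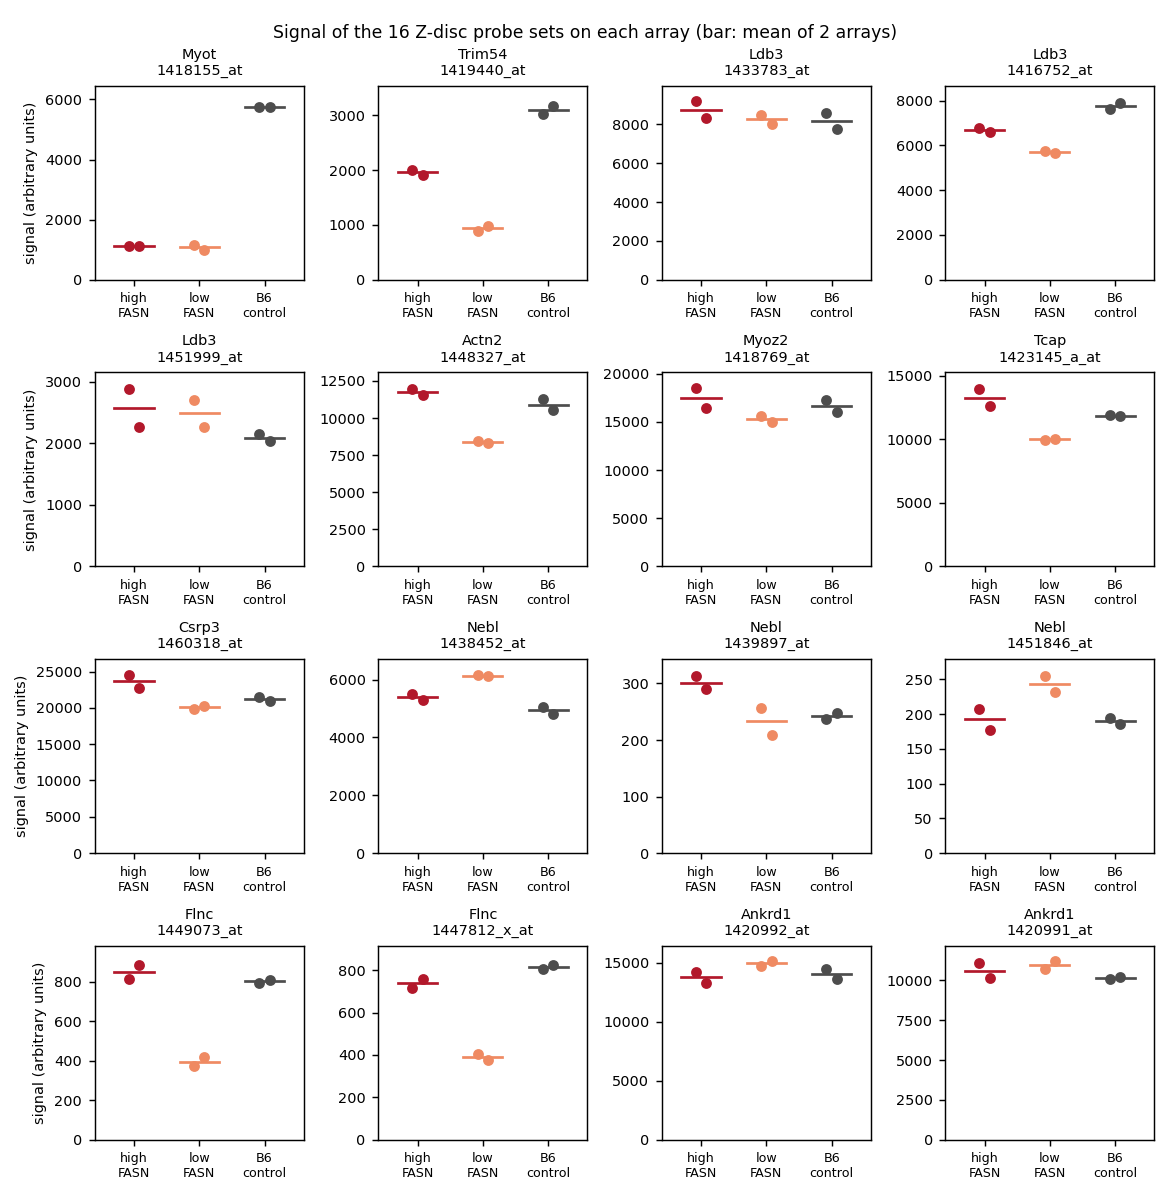
Signal (arbitrary units, linear axis from 0) of each of the 16 Z-disc probe sets on the 2 arrays of each group (points) with the group mean (bar), in the order high FASN, low FASN and B6 control. Myot stands at 1112 and 1078 in the lines against 5742 in control, Trim54 forms 3 separate levels, and both Flnc probe sets are lowest in low FASN hearts.

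Actn2 encodes sarcomeric alpha-actinin, the crosslinker that forms the backbone of the Z-disc. It read 11929 and 11534 in high FASN hearts, 8448 and 8344 in low FASN hearts, and 11303 and 10515 in B6 control. Low FASN hearts were below both other groups without overlap. Actn2 rose in high FASN hearts relative to low FASN hearts by 0.48 ± 0.0514 (limma adjusted p = 0.000480). Against control low FASN hearts differed by -0.38 ± 0.0514 and high FASN hearts by 0.11 ± 0.0514.

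Flnc encodes filamin C, which crosslinks actin at the Z-disc and the cell membrane and is a partner of myotilin. Probe set 1449073_at read 812 and 884 in high FASN hearts, 372 and 419.9 in low FASN hearts, and 796 and 809 in B6 control. Its second probe set, 1447812_x_at, read 715 and 759.6 in high FASN hearts, 403 and 374 in low FASN hearts, and 805 and 825 in B6 control. Both showed low FASN hearts at about the same distance below the other groups, with no overlap. High FASN hearts exceeded low FASN hearts by 1.07 ± 0.0903 on 1449073_at (limma adjusted p = 0.000157) and by 0.90 ± 0.0840 on 1447812_x_at (limma adjusted p = 0.000253). From control low FASN hearts differed by -0.99 ± 0.0903 and -1.04 ± 0.0840 on these probe sets. High FASN hearts differed from control by 0.08 ± 0.0903 and -0.14 ± 0.0840, with opposite signs.

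Trim54, Flnc and Actn2 thus shared a lower signal in low FASN hearts than in high FASN hearts. Ankrd1 (below) was not called between the lines as deposited, but was called lower in high FASN hearts with quantile normalization and cyclic loess. As deposited, Tcap, Csrp3 and Ldb3 1416752_at were also called lower in low than high FASN hearts, and Nebl 1438452_at higher (below). A lower signal in low FASN hearts was thus not particular to Trim54, Flnc and Actn2. The RefSeq promoter windows of Trim54, Flnc, Actn2 and Ankrd1 are shown as examples. They run from 250 bases before to 50 after the start on GRCm38.p6. Where a gene has several starts the most upstream one is shown. Capitals mark E-boxes (CANNTG, the site of basic helix-loop-helix factors) and MCAT elements (CATTCC on either strand, the site of TEAD factors in muscle promoters), and no E-box overlaps an MCAT element here.
Trim54, chr5:31116362-31116661, plus strand: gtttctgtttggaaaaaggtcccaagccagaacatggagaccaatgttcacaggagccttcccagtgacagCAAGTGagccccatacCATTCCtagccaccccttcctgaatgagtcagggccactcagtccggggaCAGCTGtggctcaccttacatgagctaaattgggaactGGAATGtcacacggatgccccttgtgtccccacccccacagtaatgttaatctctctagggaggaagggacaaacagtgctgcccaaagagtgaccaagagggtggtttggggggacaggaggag
Flnc, chr6:29432903-29433202, plus strand: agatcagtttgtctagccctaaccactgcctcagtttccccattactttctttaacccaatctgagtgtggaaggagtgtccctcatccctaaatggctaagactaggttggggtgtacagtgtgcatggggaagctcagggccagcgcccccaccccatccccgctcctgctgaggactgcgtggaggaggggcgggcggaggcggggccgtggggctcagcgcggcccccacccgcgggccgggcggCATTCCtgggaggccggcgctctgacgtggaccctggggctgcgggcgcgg
Actn2, chr13:12340683-12340982, minus strand: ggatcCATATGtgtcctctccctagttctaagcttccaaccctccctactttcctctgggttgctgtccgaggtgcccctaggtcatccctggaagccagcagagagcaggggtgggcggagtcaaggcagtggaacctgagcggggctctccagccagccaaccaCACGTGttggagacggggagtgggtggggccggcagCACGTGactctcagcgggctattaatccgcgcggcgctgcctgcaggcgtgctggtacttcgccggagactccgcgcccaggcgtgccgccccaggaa
Ankrd1, chr19:36119795-36120094, minus strand: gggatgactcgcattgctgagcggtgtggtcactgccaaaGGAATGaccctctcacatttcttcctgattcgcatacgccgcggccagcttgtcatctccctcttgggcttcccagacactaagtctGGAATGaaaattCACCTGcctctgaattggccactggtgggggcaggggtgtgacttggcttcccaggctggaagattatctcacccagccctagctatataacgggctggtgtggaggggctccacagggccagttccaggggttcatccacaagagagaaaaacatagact

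Counted from the start, with the base before it as -1, the Trim54 window held MCAT elements with their first base at -163 and -75 and E-boxes at -179 and -113. The Flnc window held 1 MCAT element, whose first base was -1, and no E-box. Actn2 had 3 E-boxes, at -245, -84 and -48, and no MCAT element. Ankrd1 had MCAT elements at -210 and -123 and an E-box at -111. Neither motif was thus common to the windows of Trim54, Flnc and Actn2. The Ankrd1 window held both motifs, so it could not serve as a contrast to the others. Of 32851 mouse windows of the same length, 72.3% held an E-box and 14.7% an MCAT element on either strand. A TATAAA box, found in 13.6% of the windows, was in none of the 14 member windows. A MEF2 site (3.19% of windows) was in the Myoz2 window, and a CArG box (1.63%) was in both Ldb3 windows and in 1 of 4 Nebl windows. Windows were matched for 8 of the 10 genes, not for Myot and Tcap. These matches describe letters and do not show binding.

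Ldb3 encodes a PDZ and LIM domain adaptor that binds alpha-actinin, and its 3 probe sets did not move together. Probe set 1416752_at read 6761 and 6579.7 in high FASN hearts, 5759 and 5649.8 in low FASN hearts, and 7601 and 7908 in B6 control. These groups did not overlap and had the same order as Trim54. The difference from control was -0.22 ± 0.0487 in high FASN hearts and -0.44 ± 0.0487 in low FASN hearts, and the lines differed by 0.23 ± 0.0487 (limma adjusted p = 0.0125). The call between the lines was lost with quantile normalization (0.15, limma adjusted p = 0.0672), median centring (0.0532) and cyclic loess (0.0536), and without low FASN array 1 (0.0831) or array 2 (0.116). Probe set 1433783_at read 9179 and 8323 in high FASN hearts, 8492 and 8012 in low FASN hearts, and 8566 and 7761 in B6 control, and all groups overlapped. Probe set 1451999_at read 2876 and 2268 in high FASN hearts, 2707 and 2263 in low FASN hearts, and 2151 and 2033 in B6 control. On this one both lines lay above control, by 0.29 ± 0.114 in high and 0.24 ± 0.114 in low FASN hearts, and neither difference was called as deposited. Ldb3 is known to be spliced into several isoforms, and which transcripts each probe set reads was not analysed here.

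Tcap encodes telethonin, which caps the end of titin in the Z-disc. It read 13952 and 12643 in high FASN hearts, 9974 and 10022 in low FASN hearts, and 11899.7 and 11815 in B6 control. High FASN hearts were above and low FASN hearts below control, without overlap. As deposited, the difference from control was called in low FASN hearts and not in high FASN hearts. Between the lines Tcap rose by 0.41 ± 0.0545 in high FASN hearts (limma adjusted p = 0.00137).

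Csrp3 encodes muscle LIM protein, a Z-disc partner of telethonin and alpha-actinin. It read 24517 and 22757 in high FASN hearts, 19908 and 20242 in low FASN hearts, and 21538 and 20985 in B6 control, in the same order as Tcap. As deposited, the lines differed by 0.23 ± 0.0497 (limma adjusted p = 0.0115). With quantile normalization the difference turned to -0.05 (limma adjusted p = 0.288), so Csrp3 has no settled direction. It kept its sign but not its call with median centring (0.22, limma adjusted p = 0.0808) and cyclic loess (0.09, limma adjusted p = 0.0710). With one array left out the difference was 0.18 to 0.29, and the call was also lost without either low FASN array.

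Myoz2, a Z-disc protein that binds calcineurin and alpha-actinin, read 18477 and 16461 in high FASN hearts, 15650.0 and 15029 in low FASN hearts, and 17232 and 16003 in B6 control. High FASN hearts overlapped control and low FASN hearts lay just under both. The difference between the lines was 0.19, with a 95% interval from 0.04 to 0.33, and was not called (limma adjusted p = 0.0745). It turned to -0.04 with quantile normalization.

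Nebl encodes nebulette, the cardiac relative of nebulin that links actin filaments to the Z-disc. Its bright probe set 1438452_at read 5515 and 5289.8 in high FASN hearts, 6148 and 6111 in low FASN hearts, and 5051 and 4815 in B6 control. Here low FASN hearts were highest and control lowest, with no overlap, which is the reverse of the order of Trim54. The difference from control was 0.31 ± 0.0512 in low FASN hearts, which was called, and 0.13 ± 0.0512 in high FASN hearts, which was not called as deposited. Nebl fell in high FASN hearts relative to low FASN hearts by 0.18 (limma adjusted p = 0.0369), a call lost in 9 of 17 alternatives, among them leaving out any array but high FASN array 1. Of its dimmer probe sets, 1439897_at read 313 and 290.2 in high FASN hearts, 257 and 209 in low FASN hearts, and 238 and 247 in B6 control. Probe set 1451846_at read 207 and 177 in high FASN hearts, 255 and 232 in low FASN hearts, and 195 and 185 in B6 control. They differed between the lines in opposite directions, by 0.35 ± 0.134 and -0.32 ± 0.139, and neither was called (limma adjusted p = 0.0981 and 0.146).

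Ankrd1 encodes a cardiac ankyrin repeat protein that binds titin and is known to be induced by stretch and load. Probe set 1420992_at read 14227 and 13322 in high FASN hearts, 14745 and 15149 in low FASN hearts, and 14487 and 13666.5 in B6 control. Probe set 1420991_at read 11116 and 10121 in high FASN hearts, 10714 and 11220.2 in low FASN hearts, and 10089 and 10203 in B6 control. High FASN hearts overlapped control on both. Low FASN hearts lay above control without overlap on both, by 0.09 ± 0.0527 and 0.11 ± 0.0560, and neither difference was called as deposited. These differences became 0.20 and 0.20 with quantile normalization and 0.20 and 0.21 with cyclic loess, where they were called. Between the lines the differences were -0.12 (95% interval -0.24 to 0.00011, limma adjusted p = 0.154) and -0.05 (-0.17 to 0.08, limma adjusted p = 0.604). With quantile normalization both were called, at -0.32 and -0.17, and with cyclic loess at -0.24 and -0.15.

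**Figure D2:**
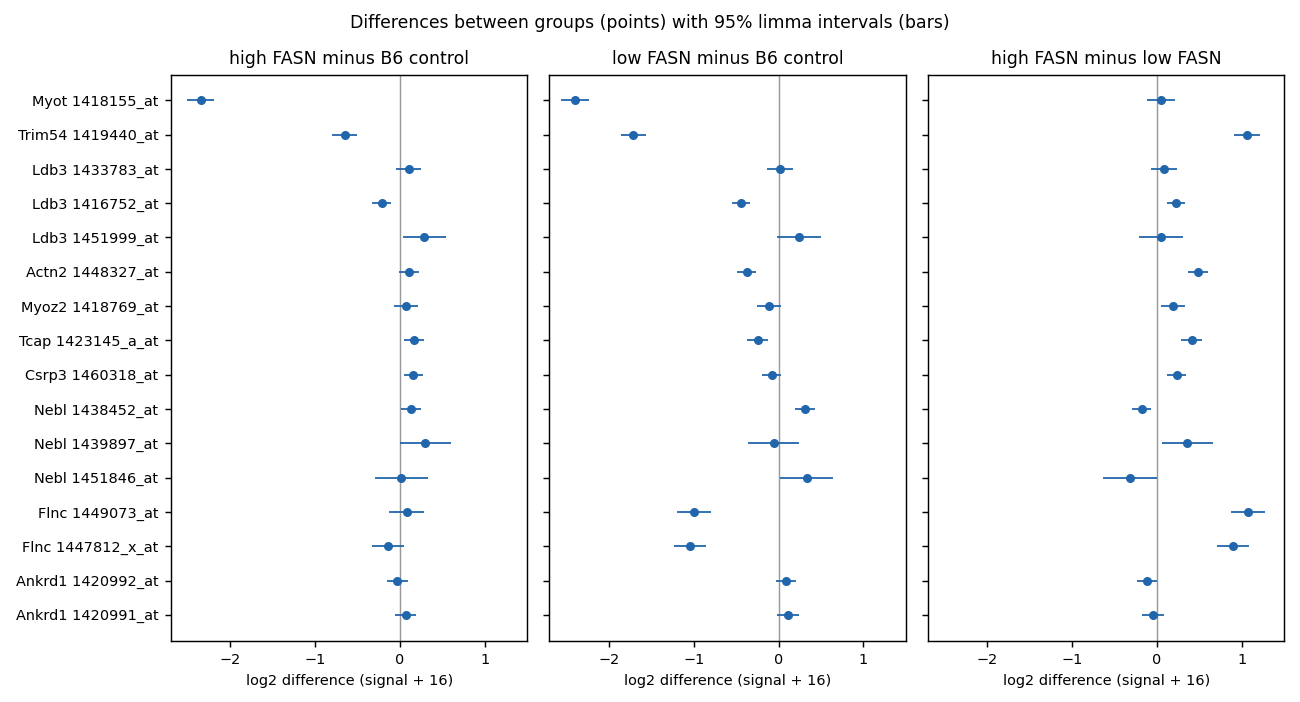
Log2 difference of signal + 16 (points) with its 95% limma interval (bars) for the 16 probe sets, in 3 panels for high FASN minus B6 control, low FASN minus B6 control, and high FASN minus low FASN. Myot stands near -2.4 in the first 2 panels and near 0 in the third, where Trim54 and both Flnc probe sets lie between 0.90 and 1.07.

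Of the 16 probe sets, 0 were called higher and 3 lower in high FASN hearts than in control (Myot, Trim54 and Ldb3 1416752_at), where 8.22% and 6.2% of all tested probe sets were called in these directions. In low FASN hearts 1 was higher and 7 were lower than in control, against 13.6% and 10.8% of all tested. Between the lines 7 were higher in high FASN hearts and 1 was lower, where 9.64% and 8.85% of all tested probe sets were called. The median difference of the member probe sets between the lines was 0.21, against 0.0052 over all tested probe sets. That split was 5 to 0 with median centring and 5 to 3 with quantile normalization or cyclic loess, and the median was 0.057 with quantile normalization. Without either low FASN array, 5 members were called higher and 0 lower. Without high FASN array 2, the members called against control in high FASN hearts numbered 6 in place of 3.

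Bright heart muscle genes differed between the lines as a whole. Of 10 heart muscle markers, among them Myh6 (alpha myosin heavy chain) and Tnnt2 (cardiac troponin T), 8 were called higher in high than low FASN hearts and 0 lower, with a median of 0.38. With quantile normalization these became 3 higher and 1 lower, with a median of 0.079. They stayed 8 higher and 0 lower with median centring (median 0.37) and cyclic loess (median 0.23). The brightest 1% of tested probe sets, 226 in number, had a median difference between the lines of 0.25, with 168 called higher and 2 lower. The median was 0.24 with median centring (83 higher, 1 lower) and 0.11 with cyclic loess (99 higher, 7 lower). Csrp3, at 0.23, and Myoz2, at 0.19, are in this 1%. Actn2 at 0.48 and Tcap at 0.41 are less bright and outside it, at percentiles 99.1 and 99.2 of mean signal among all non-control probe sets. The part of this shift in the differences of these genes was not tested. Csrp3 and Myoz2 turned to -0.05 and -0.04 with quantile normalization. With quantile normalization, which took the median of the brightest 1% to -0.00018, Actn2 was still higher in high FASN hearts by 0.37 and Tcap by 0.25. Trim54 and Flnc were less bright, and their differences between the lines changed little, to 1.07 for Trim54, 1.09 for Flnc 1449073_at and 0.91 for Flnc 1447812_x_at.

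**Figure D3:**
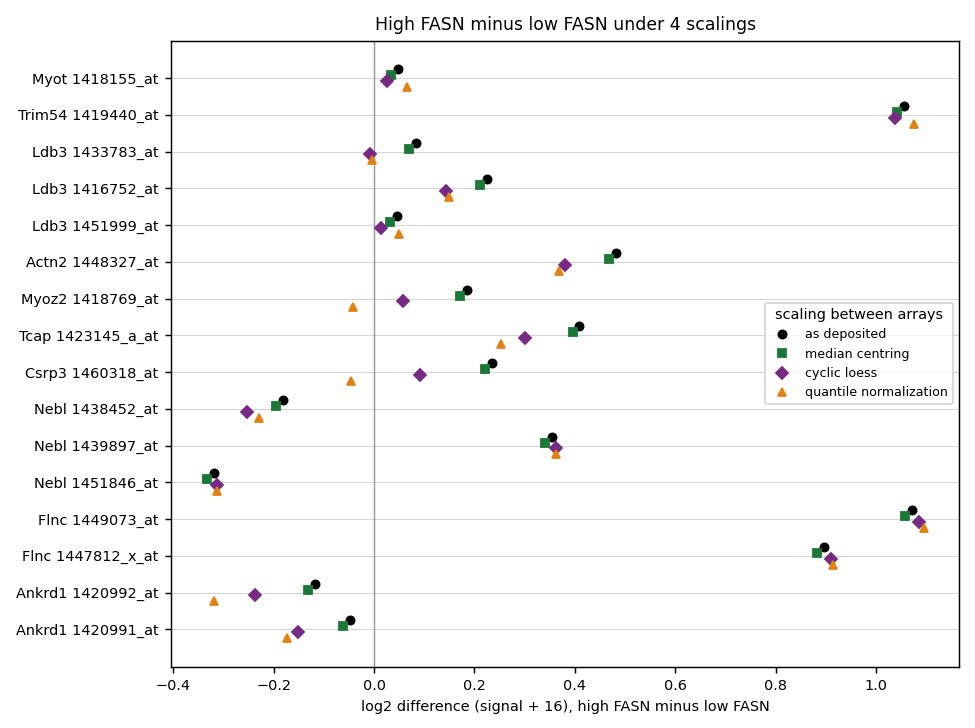
Log2 difference of signal + 16, high FASN minus low FASN, of the 16 probe sets under the deposited scaling (circles), median centring (squares), cyclic loess (diamonds) and quantile normalization (triangles). Trim54 and Flnc keep their place, Actn2 and Tcap stay above 0 with smaller values, Csrp3, Myoz2 and Ldb3 1433783_at cross 0 with quantile normalization, and Ankrd1 moves further below 0.

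The summed signal of the 10 heart muscle markers was 246010.0 to 274426 in high FASN hearts, 199400.0 to 204630.0 in low FASN hearts, and 217448 to 226367 in B6 control. Myot stood at 19.4% and 18.8% of control in the lines beside these sums. Markers of other cells moved with the groups as well. The 11 skeletal muscle markers summed to 564 to 644 in high FASN hearts, 669 to 695 in low FASN hearts and 423 to 435 in B6 control, of which 3 were bright enough to be tested, with the fast myosin genes Myh1, Myh2 and Myh4 below that limit. Fibroblast markers were called higher than in control for 6 of 8 genes in high FASN hearts and 7 of 8 in low FASN hearts, smooth muscle markers for 4 of 5 in each, and adipocyte markers for 4 of 5 tested in each. The fifth smooth muscle marker, Smtn (smoothelin), which was named after its values were seen, was called lower in low FASN hearts (-0.43), a call lost without control array 2 or either low FASN array. Smooth muscle sums were 11605 to 11899 in high FASN hearts, 11392 to 11691 in low FASN hearts and 5466 to 5607 in B6 control. The fibroblast sums were 43779 to 44716 in high FASN hearts, 47041 to 48828 in low FASN hearts and 31877 to 32372 in B6 control. Adipocyte sums were 25949 to 28801, 22324 to 22981 and 19957 to 20359 in the same groups, and most of each sum was Fabp4, which was not called against control. The median log2 difference of the 5 tested adipocyte markers from control was 2.02 in high FASN hearts and 1.74 in low FASN hearts. Adipoq (adiponectin) read 3485 and 3181 in high FASN hearts, 1678 and 1681 in low FASN hearts, and 138 and 97.5 in B6 control. A sum over probe sets follows its brightest member, so these sums describe the list and not each gene. Airway markers, which sum to 3084 to 3277 in high FASN hearts, 234 to 311 in low FASN hearts and 227 to 237 in B6 control, were called higher in high FASN hearts for 4 of 6 genes and in low FASN hearts for 1. Of 6 macrophage markers, 3 were called lower than control in high FASN hearts and 1 higher in low FASN hearts, and of 5 atrial markers 3 and 1 were called higher in these lines. The part of these cells in the members' differences was not tested.

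Other Z-disc genes did not share one direction. Of 35 listed, 33 had a probe set and 31 were tested, each by its brightest probe set. In high FASN hearts 7 were called higher and 6 lower than in control, in low FASN hearts 10 higher and 11 lower, and in the comparison of the lines 5 higher and 5 lower, with median differences of 0.03, 0.05 and 0.05. The split between the lines was 2 higher and 10 lower with quantile normalization, 3 and 7 with cyclic loess and 2 and 4 with median centring. The medians over all tested probe sets were 0.04, 0.02 and 0.0052. Mypn (myopalladin, a relative of myotilin in the same immunoglobulin-domain family) averaged 1554 ± 346 in high FASN hearts, 1539 ± 208 in low FASN hearts and 2279 ± 101 in B6 control (SD, n = 2 each). Its log2 difference from control was -0.56 ± 0.137 in high FASN hearts and -0.57 ± 0.137 in low FASN hearts, and the lines differed by 0.0025 (95% interval -0.31 to 0.31). In high FASN hearts the call was lost without high FASN array 2 (-0.34, limma adjusted p = 0.0616) or either control array, and in low FASN hearts without low FASN array 1 (-0.43, limma adjusted p = 0.123) or either control array. Nebulin (Neb), dim at 32.4 ± 0.431 in control, was higher by 1.01 in high FASN hearts and 0.96 in low FASN hearts, calls lost without high FASN array 1, either low FASN array or either control array. The PDZ and LIM domain gene Pdlim3 was higher by 0.87 and 0.65, and Synpo2l, a synaptopodin relative, by 0.45 and 0.60. Syne1, which encodes a nuclear envelope spectrin repeat protein, was higher by 0.67 and 0.44, and its call in low FASN hearts was lost without low FASN array 1 or control array 2.

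Between the lines, Lmcd1 (a LIM domain cofactor) fell by 0.56 in high FASN hearts relative to low FASN hearts (limma adjusted p = 0.00392) and the actin capping genes Capzb by 0.46 (0.00205) and Capza1 by 0.40 (0.00735), while Cmya5, a myospryn gene, rose by 0.34 (0.00480). Desmin (Des), the intermediate filament around the Z-disc, rose by 0.23 (0.0259), a call lost with median centring (0.0881) and cyclic loess (0.0516). The small heat shock gene Cryab rose by 0.21 as deposited (0.0184) but turned to -0.10 with quantile normalization (0.0313). Ttn, the titin gene, differed by 0.15 ± 0.0728 and was not called (0.194). With one low FASN array left out the calls of Des and Cryab were lost (either array), as were those of Capza1 (0.0740) and Cmya5 (0.0653) without array 2, and that of Des also without high FASN array 1 (0.16, limma adjusted p = 0.0688). Against control as deposited, Lmcd1 and Capzb were called higher in low FASN hearts (0.67 and 0.49) but not in high FASN hearts (0.11 and 0.03). Capza1 was called lower in high FASN hearts (-0.40) but not in low FASN hearts (0.0064). Cmya5, Des and Cryab were called lower in low FASN hearts (-0.31, -0.35 and -0.17) but not in high FASN hearts (0.03, -0.12 and 0.04). Myoz1, the fast skeletal muscle relative of Myoz2, was too dim to be tested.

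Among partners of titin and of the MuRF ligases, 7 of 9 listed genes were tested. Trim63, the MuRF relative of Trim54, averaged 6289 ± 209 in high FASN hearts, 4375 ± 220 in low FASN hearts and 5270 ± 342 in B6 control (SD, n = 2 each). It was thus above control in high FASN hearts (0.26 ± 0.0627) and below it in low FASN hearts (-0.27 ± 0.0627), and the lines differed by 0.52 (limma adjusted p = 0.000823). The call in high FASN hearts was lost with median centring (0.23, limma adjusted p = 0.0888) and without high FASN array 2 or control array 2, and that in low FASN hearts without low FASN array 2 or control array 1. Ankrd23, a titin-binding relative of Ankrd1, averaged 1021 ± 70.1 in high FASN hearts, 2165 ± 274 in low FASN hearts and 985 ± 11.3 in B6 control. It fell by 1.07 in high FASN hearts relative to low FASN hearts (limma adjusted p = 0.000157), a direction opposite to that of Trim54. The autophagy receptor gene Sqstm1 was called lower than control in both lines, at -0.35 in high FASN hearts and -0.64 in low FASN hearts, and the protease gene Capn3 was called lower in low FASN hearts, at -0.97. The Sqstm1 call in high FASN hearts was lost without control array 1 (-0.28), and the Capn3 call without low FASN array 2 (-0.75) or either control array. Ankrd2 was too dim to be tested.

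The next list held chaperones that serve filamin and the Z-disc, and Flna, which encodes filamin A. Of its 10 tested genes, 4 were called higher in high than low FASN hearts and 0 lower, with a median of 0.15, which became 2 and 2 with quantile normalization and 3 and 2 with cyclic loess. Hspb1 was higher in high than low FASN hearts by 0.54 (limma adjusted p = 0.00194), Hspb6 by 0.38 (0.000821), Hspb7 by 0.37 (0.00536) and Hspb2 by 0.26 (0.0491). The Hspb7 call was lost with quantile normalization (0.10, limma adjusted p = 0.0645) and the Hspb2 call with cyclic loess (0.25, limma adjusted p = 0.0644). The Hspb7 call was also lost without low FASN array 1 (0.34), and the Hspb2 call without any array but high FASN array 1 (0.16 without high FASN array 2). Against control as deposited, Hspb1, Hspb6 and Hspb7 were called lower in low FASN hearts, at -0.69, -0.42 and -0.37. In high FASN hearts they stood at -0.14, -0.03 and 0.0043 from control and were not called. Hspb2 was called in neither line against control. Bag3, the cochaperone of filamin turnover, averaged 4643 ± 214 in high FASN hearts, 4163 ± 108 in low FASN hearts and 5191 ± 395 in B6 control. Its difference from control was -0.16 ± 0.0646 in high FASN hearts, which was not called, and -0.32 ± 0.0646 in low FASN hearts, which was, and the lines differed by 0.16 (limma adjusted p = 0.127). The low FASN call was lost without low FASN array 2 or control array 1. Of 4 tested M-band genes, which hold the middle of the sarcomere, 3 were higher in high than low FASN hearts and 0 lower, with a median of 0.29, Myom2 at 0.45 and the creatine kinase gene Ckm at 0.39. With quantile normalization 2 were higher and 0 lower, the median was 0.097, Myom2 stood at 0.19 and Ckm at 0.12. Of 11 genes of calcineurin, its NFAT targets and the protein kinases C and D, 0 were higher between the lines and 1 was lower, namely Rcan1, an inhibitor and target of calcineurin, at -0.23 (limma adjusted p = 0.0408), a call lost with median centring (0.0622) and without any array but high FASN array 1. Nfatc2 read 502 and 442 in high FASN hearts, 402 and 724 in low FASN hearts, and 235 and 246 in B6 control. It was called higher than control by 0.93 in high FASN hearts, a call lost without high FASN array 1 or either control array, and by 1.12 in low FASN hearts, which became 0.71 without low FASN array 2 (limma adjusted p = 0.0175).

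Genes whose profile over the 6 arrays was most like that of Myot or Trim54 were found by Pearson's r of log2 signal, among single-symbol probe sets with an SD of at least 0.5 of that of the gene in question. The 6 arrays share their 3 groups, so a high r mainly says that the group means have the same spacing. For Myot there were 558 candidates, and the 5 closest genes were Bdh1 (0.998), Abra (0.998), Gda (0.998), Mt2 (0.996) and Lcn2 (0.996). Abra, which encodes an actin-binding protein of striated muscle, averaged 502 ± 1.12 in high FASN hearts, 468 ± 15.7 in low FASN hearts and 1148 ± 18.7 in B6 control (SD, n = 2 each). Bdh1, an enzyme of ketone body metabolism, stood at 15.6% and 14.3% of control in high and low FASN hearts, and Gda, guanine deaminase, at 34.1% and 35.2%. The metallothionein gene Mt2 stood at 16.8% and 19.1%, and Lcn2, which encodes lipocalin, at 17.1% and 19.1%.

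For Trim54, with 2513 candidates, the closest were Lrrc2 (0.999), Hspb7 (0.996), Ppara (0.996), Ankrd40 (0.992) and Rcan2 (0.992). Hspb7, a cardiac small heat shock protein gene that interacts with filamin C, averaged 3505 ± 15.2 in high FASN hearts, 1708 ± 69.9 in low FASN hearts and 4826 ± 90.8 in B6 control on probe set 1421289_at. Its brightest probe set, 1434927_at, read high FASN hearts level with control instead, at 21366 ± 2168 against 21252 ± 572, and low FASN hearts at 16460 ± 482. Ppara, the nuclear receptor of fatty acid oxidation, stood at 70.0% and 39.5% of control in high and low FASN hearts, and Lrrc2 at 78.1% and 54.6%. Each was read by the probe set most like Trim54. Other Ppara probe sets differed between the lines by 0.38 and 0.25, against 0.81 on this one. Rcan2 differed by 0.13 on its other probe set, against 0.78, and Lrrc2 by 0.55, against 0.51. Among the members themselves, Ldb3 1416752_at had an r of 0.985 with Trim54 and Flnc 1447812_x_at one of 0.956, while Nebl 1438452_at stood at -0.978. Myot and Trim54 had an r of 0.796 with each other.

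**Figure D4:**
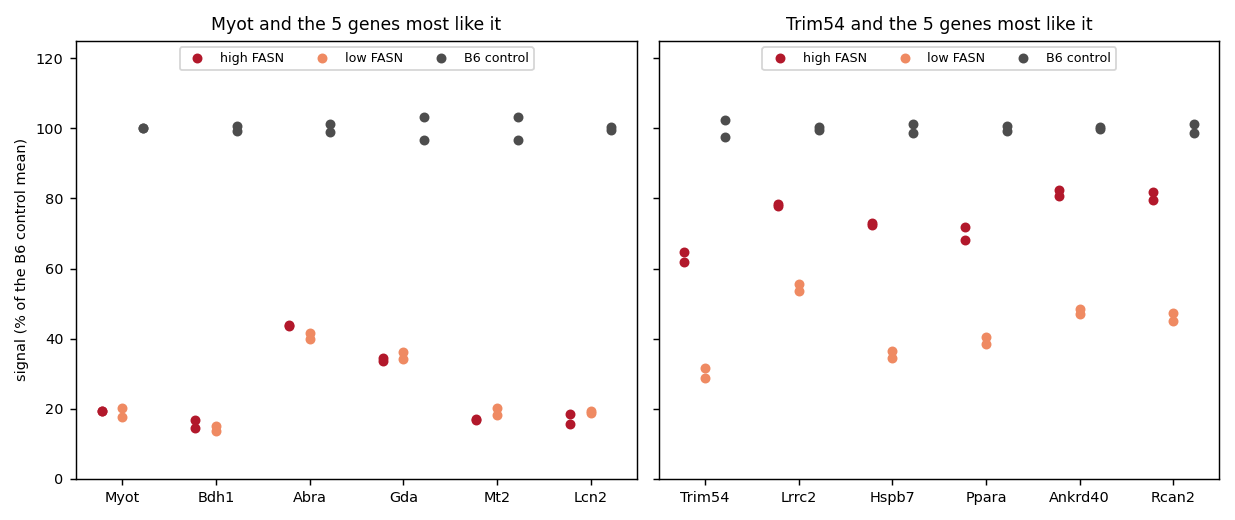
Signal on each array as a percentage of the B6 control mean (points, linear axis) for Myot and the 5 genes most like it (left) and Trim54 and the 5 genes most like it (right), with high FASN, low FASN and B6 control from left to right at each gene. On the left both lines lie together under 45% of control, and on the right high FASN hearts lie between low FASN hearts and control.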

How the data were processed

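The values the authors deposited are linear intensities, one for each probe set on each array. GCOS is named in the submitters' processing notes; version, summary algorithm and scaling target are not stated in the labels. The trimmed mean of each deposited column (2% off each end) was 300.002, so the scaling was kept. After 64 control probe sets were set aside, 34945 of 45037 had 1 symbol, 932 several and 9160 were not listed in the annotation supplied. Precision is limited by the number of arrays.

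The model was fitted to log2(signal + 16) with limma 3.58.1 under R 4.3.3. Probe sets with a mean over the 6 arrays at or above the median were tested, 22519 in all. One model with 3 group means was fitted (lmFit, eBayes with its trend option; 3 residual degrees of freedom, 6.30 prior; two-sided, Benjamini-Hochberg over all tested probe sets), and it was tested on simulated data. Alternatives were other pseudocounts, filters, scalings and variance models, the 4 arrays compared, a replicate block, the brightest probe set of each gene alone, and leaving out single arrays. The members, lists and tests were chosen with earlier results of these data known. Named genes are the members, Fasn, 5 genes most like Myot and Trim54, a panel of 12 partners, and up to 4 called genes with the largest differences per list and comparison; some list genes under this rule are given by counts only. Promoter windows are from RefSeq (GRCm38.p6). Figures used matplotlib 3.10.9 under Python 3.11.15.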

Additional observations from a re-analysis of the deposited data

Results flagged for a closer look

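Signals differed between the high and low FASN lines by the limma test for 8 of the 16 probe sets, 7 higher and 1 lower in the high line, where 9.64% of all tested probe sets were called higher and 8.85% lower. The log2 difference was 1.05 for Trim54, 1.07 for Flnc 1449073_at, 0.90 for Flnc 1447812_x_at, 0.48 for Actn2, 0.41 for Tcap, 0.23 for Csrp3, 0.23 for Ldb3 1416752_at and -0.18 for Nebl 1438452_at. Trim54, both Flnc probe sets and Actn2 were called under all 17 alternatives (16 for Flnc 1447812_x_at, which is not the brightest of its gene). Tcap was called under 16 of 17, and Csrp3 turned its sign with quantile normalization. With 2 arrays a group, no single array could be tested for standing apart.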

How the results depend on the processing

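All tested probe sets called in the high line against control numbered 3246, 3077 with quantile normalization, 3257 with cyclic loess and 1228 without the variance trend. Member probe sets called there numbered 3, 5, 5 and 2 in the same order. In the low line against control, all tested probe sets called numbered 5494, 5382, 5385 and 3595 in this order of settings. Member probe sets called there numbered 8, 10, 10 and 6. Between the lines they numbered 8, 5 with median centring, 4 without the variance trend, and 5 to 9 with one array left out (5 without either low-line array). With a replicate block the members called were 4, 9 and 9 in the 3 comparisons, and all tested probe sets called were 3376, 5646 and 4297. The block changed no member count by over 1.5 times. It added Ldb3 1451999_at in both lines against control and Myoz2 between the lines. Same-numbered arrays share a number in their titles. Their deviations from the group means correlated at 0.0015 to 0.036 over the 22519 tested probe sets. Such a value over all probe sets cannot exclude a pairing that acts on fewer of them. All tested probe sets called numbered 3246, 5494 and 4165 in the 3 comparisons, against 1228, 3595 and 1444 without the trend. With one array left out they numbered 1370 to 3505, 2925 to 6492 and 1556 to 4154, the lone array being assumed to vary like the other groups; the first count was 1600 and 1370 without control arrays 1 and 2, the second 2925 and 2930 without low FASN arrays 1 and 2 and 3388 and 3224 without the control arrays, and the third 1579 and 1556 without low FASN arrays 1 and 2.

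Signs turned for small differences. With quantile normalization, high line against control became -0.044 for Myoz2, -0.056 for Nebl 1451846_at and -0.0040 for Csrp3; low line against control became 0.042 for Csrp3; and high against low line became -0.042 for Myoz2, -0.0045 for Ldb3 1433783_at and -0.046 for Csrp3. With cyclic loess, Nebl 1451846_at became -0.050 in the high line, Myoz2 0.0081 and Csrp3 0.054 in the low line, and Ldb3 1433783_at -0.0084 between the lines. With median centring, Nebl 1451846_at became -0.016 in the high line. With one array left out, high line against control ranged from -0.013 to 0.15 for Myoz2, -0.0036 to 0.13 for Ankrd1 1420991_at, -0.079 to 0.016 for Ankrd1 1420992_at and -0.091 to 0.12 for Nebl 1451846_at. Low line against control ranged from -0.054 to 0.088 for Ldb3 1433783_at and -0.20 to 0.080 for Nebl 1439897_at. Between the lines Myot ranged from -0.050 to 0.15, Ankrd1 1420991_at from -0.12 to 0.020 and Ldb3 1451999_at from -0.13 to 0.22. The cause of these turns was not tested. The number of arrays limits the precision, and no background measure was used here.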
